A study of Rattus norvegicus with 6 samples.

Results

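Hypoxia-inducible factors (HIF) are transcription factors that build up when oxygen is short, and their best known targets move glucose into the cell and turn it into lactate. The 37 genes described here are the glucose transporters, the enzymes from hexokinase to lactate dehydrogenase, the lactate transporters, and a set of other widely used HIF target genes such as Bnip3, Ndrg1, Car9 and Epo. They were listed by name, and a gene was represented by the probe set with the highest mean over all arrays among those annotated to that gene alone. Of the 37 genes, 35 had such a probe set among the 14217 genes that the array names, and 32 lay above a filter that removed the 40% of probe sets with the lowest means. These 32 are called measured below.

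RNA came from the metrial gland of pregnant rats, a part of the uterine wall beneath the placenta in which decidual stroma and maternal natural killer cells surround the arteries. The ambient group was 3 arrays from animals in 21% oxygen, and the hypoxia group was 3 arrays from animals in 10.5% oxygen from gestation day 6.5 to day 13.5. No allele, drug or other agent is named for either group, and the strain and the age of the dams are not given in the labels. Whether the 3 arrays in a group stand for 3 different dams is not stated, so each p-value reflects only how far these arrays vary, and part of that may be technical. Whole tissue was used, so fewer cells of a type and less RNA per cell cannot be told apart.

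Some background helps to read the values. Cells short of oxygen make ATP by glycolysis, and HIF raises many of its genes together, often by binding the letters ACGTG or GCGTG near their start sites. HIF targets outside the pathway limit mitochondrial use of oxygen, promote removal of mitochondria, or slow growth. The rat uterus adapts over days to low oxygen, and trophoblast entering the uterine wall is itself known to respond to it.

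At 10.5% oxygen most of these genes did not pass the test. Of the 32 measured genes, 3 rose (Bnip3, Bnip3l and Slc16a3), 0 fell and 29 did not pass, in a limma fit adjusted over all 18625 probe sets tested. Over all these probe sets 4.02% were called higher, 1.97% lower and 5.99% in either direction, so the members' share, 9.38%, was not far from the background. At an unadjusted p under 0.05, 8 of the 32 members stood higher and 7 lower, against 13.1% and 10.6% of all probe sets (23.7% in either direction). Both shares of the members were larger than these. The 8 include Pfkfb4, which passed the filter only through its hypoxia arrays. The median difference was 0.02 on the log2 scale for the members and 0.003 for all probe sets. Of the members 18 lay above 0 and 14 below, against 50.8% of all probe sets above 0.

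Members stood apart in both directions. The groups did not overlap for 15 of the 32, 8 higher and 7 lower, which is 46.9% against 29.9% of all probe sets. The 8 again include Pfkfb4. Differences ran from -0.68 (Ankrd37) to 0.51 (Eno2), and the 95% interval lay wholly within 1.5-fold either way for 25 of the 32, or 78.1%, against 85.3% of all probe sets. A p that misses the threshold does not show that a gene is unaltered, so intervals are given below.

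**Figure D1:**
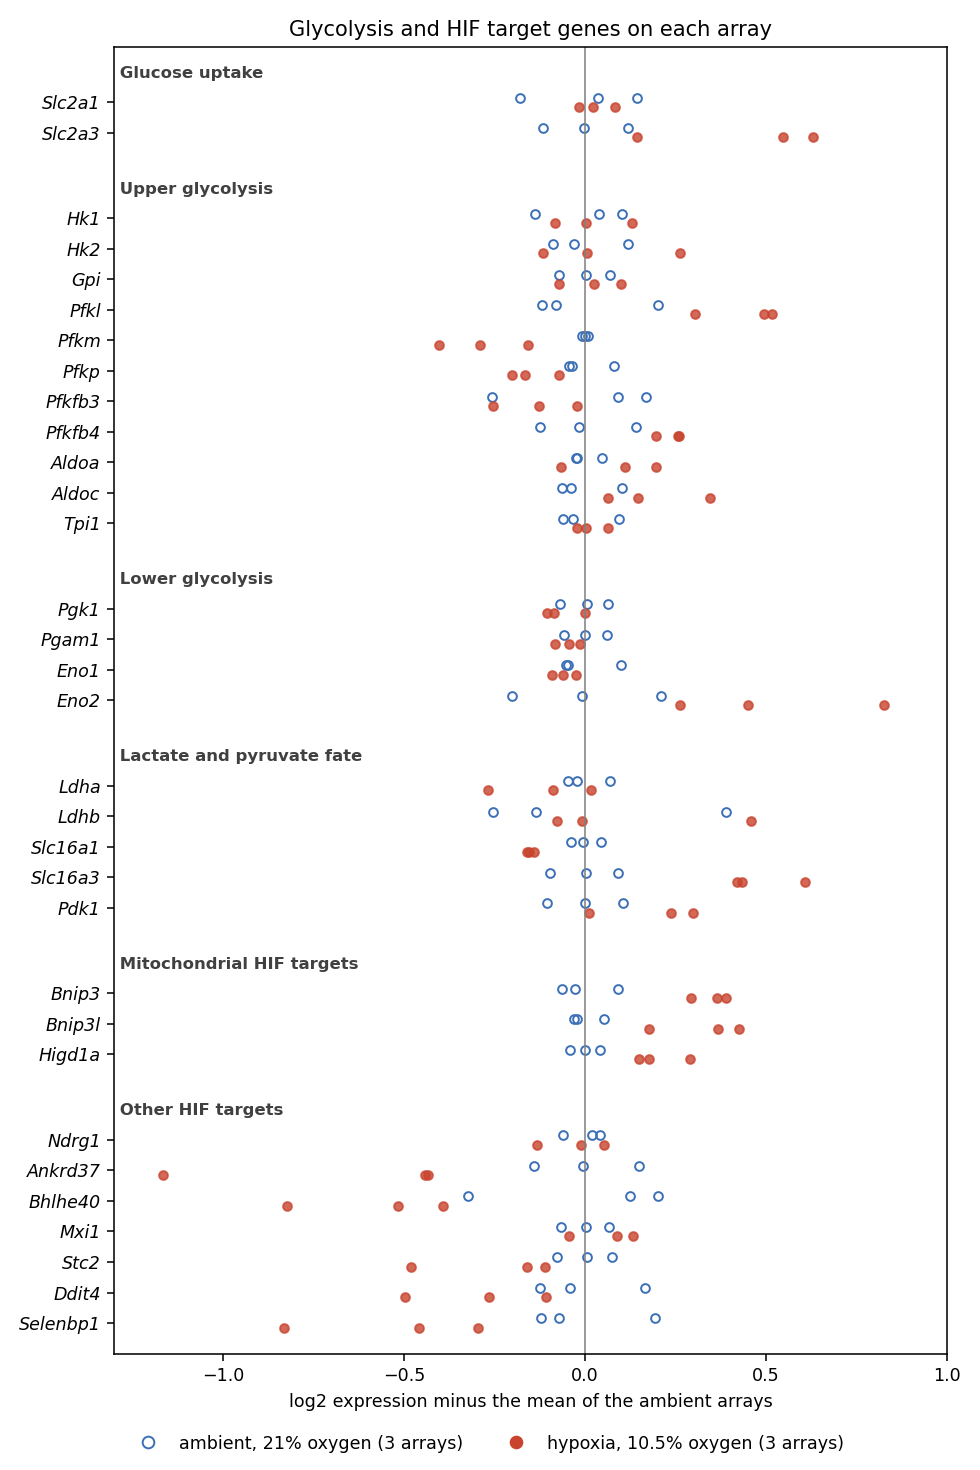
Each row is 1 of the 32 measured genes, and the horizontal axis is log2 expression on an array minus the mean of the ambient arrays. Open circles are the 3 ambient arrays and filled circles the 3 hypoxia arrays. The circles of most enzymes mix, those of Bnip3, Bnip3l and Slc16a3 lie apart to the right, and those of Ankrd37 and Selenbp1 lie apart to the left.

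Glucose enters the cell through the transporters Slc2a1 and Slc2a3, and neither passed. Slc2a1 stood at 10.61, 10.83 and 10.94 on the ambient arrays and at 10.82, 10.78 and 10.88 on the hypoxia arrays, so the groups overlapped. Its difference was 0.03 with a 95% interval from -0.17 to 0.23 (adjusted p = 0.863), which leaves room for at most 1.17-fold higher expression. Slc2a3, a transporter of high affinity found in trophoblast and in white cells, stood at 9.10, 9.33 and 9.21 and then at 9.36, 9.76 and 9.84. All 3 hypoxia arrays lay above the ambient ones, and the difference was 0.44 (95% interval 0.14 to 0.74, adjusted p = 0.088). The second probe set of Slc2a3 differed by -0.04 (interval -0.50 to 0.41), with groups that overlapped. The first probe set passed without hypoxia replicate 1 (adjusted p = 0.0317), where its difference was 0.59, while the mean of both probe sets differed by 0.20 (adjusted p = 0.395).

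In upper glycolysis 0 of the 11 measured genes passed, against 5.99% of all probe sets called. Hexokinase, which traps glucose as its phosphate, is encoded by Hk1 and by Hk2, the form that HIF is known to raise. Hk1 differed by 0.02 (interval -0.18 to 0.21) and Hk2 by 0.05 (interval -0.20 to 0.30). Hk2 stood at 8.31, 8.26 and 8.46 in ambient and at 8.35, 8.23 and 8.61 in hypoxia. The array's own hexokinase control probe sets, which are aimed at the 3' end, the middle and the 5' end, differed by 0.06, 0.02 and -0.003, with overlapping groups each time. Gpi, which turns glucose phosphate into fructose phosphate, differed by 0.02 (interval -0.13 to 0.16).

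Phosphofructokinase, the committing step of glycolysis, had isoforms that differed in direction. The liver form Pfkl stood at 8.30, 8.34 and 8.62 in ambient and at 8.94, 8.92 and 8.73 in hypoxia, a difference of 0.44 (SE 0.11, interval 0.19 to 0.68) or 1.35-fold that did not pass (adjusted p = 0.0519). The muscle form Pfkm stood at 7.86, 7.88 and 7.87 and then at 7.47, 7.58 and 7.71. Its difference was -0.28 (interval -0.48 to -0.09, adjusted p = 0.0912), and a second probe set gave -0.23 with groups that did not overlap either. The platelet form Pfkp differed by -0.15 (interval -0.28 to -0.01, adjusted p = 0.187), with all hypoxia arrays below the ambient ones.

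The call of Pfkl depended on the choice of settings. Pfkl passed with median centring (adjusted p = 0.0483), with the lowest 60% of probe sets left out (0.0446), with a robust trend (0.0473), with array weights (0.0341), with the mean of each gene's probe sets (0.0445) and without hypoxia replicate 3 (0.0498). Its difference lay between 0.38 and 0.54 with any 1 array left out.

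Of the bifunctional enzymes that set the level of the activator of phosphofructokinase, Pfkfb3 differed by -0.14 (interval -0.42 to 0.15). Pfkfb4 stood at 5.52, 5.79 and 5.63 in ambient and at 5.84, 5.90 and 5.91 in hypoxia, without overlap. Its difference was 0.24 (interval 0.02 to 0.46, adjusted p = 0.181). The ambient mean of Pfkfb4, 5.65, lay below the filter cut of 5.74, so it passed the filter only through its hypoxia arrays (mean 5.88). The aldolase Aldoa differed by 0.08 (interval -0.08 to 0.24) and its brain form Aldoc by 0.18 (interval -0.04 to 0.41). Tpi1, which interconverts the triose phosphates, differed by 0.01 (interval -0.12 to 0.15).

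In lower glycolysis 0 of 4 measured genes passed, against 5.99% of all probe sets called, and 3 of the 4 lay within a narrow band. Pgk1, which makes the first ATP of the pathway and is a standard HIF target, stood at 12.87, 12.95 and 13.01 in ambient and at 12.84, 12.86 and 12.94 in hypoxia. Its difference was -0.06 with an interval from -0.19 to 0.06. Pgam1, a mutase, differed by -0.05 (interval -0.16 to 0.06) and the common enolase Eno1 by -0.06 (interval -0.19 to 0.07). Eno2, the enolase best known from neurons, went the other way. It stood at 10.05, 10.46 and 10.24 and then at 10.70, 11.08 and 10.52, without overlap, and differed by 0.51 (SE 0.15, interval 0.16 to 0.87, adjusted p = 0.0907), or 1.43-fold.

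Gapdh and Pkm were each covered by 1 probe set that the annotation assigns to several genes, so no value is given under those names. The array's own GAPDH control probe sets, for the enzyme that feeds Pgk1, differed by -0.03 at the 3' end, -0.07 in the middle and -0.07 at the 5' end, where the hypoxia arrays lay just below the ambient ones. The 3' set stood at 13.67 ± 0.07 in ambient and at 13.64 ± 0.03 in hypoxia (SD, n = 3 each).

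The fate of pyruvate held 1 of the calls, among 5 measured genes, against 5.99% of all probe sets called. Ldha, which turns pyruvate into lactate and is one of the best known HIF targets, stood at 12.91, 12.93 and 13.02 in ambient and at 12.87, 12.69 and 12.97 in hypoxia. It differed by -0.11 (interval -0.29 to 0.06, adjusted p = 0.408), so an increase beyond 1.04-fold lay outside the interval. Ldhb, the heart form, ranged from 9.18 to 9.83 in ambient and from 9.36 to 9.90 in hypoxia, the widest interval among the enzymes of this group (-0.32 to 0.57). Pdk1, which blocks the entry of pyruvate into the mitochondrion, differed by 0.18 (interval -0.05 to 0.41), and its second probe set by 0.11.

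Of the lactate transporters 1 passed. Slc16a3, the exporter of glycolytic cells, stood at 7.46, 7.37 and 7.27 on the ambient arrays and at 7.97, 7.79 and 7.80 on the hypoxia arrays. It rose by 0.49 (SE 0.09, interval 0.28 to 0.69, adjusted p = 0.0248), or 1.40-fold, with all hypoxia arrays above all ambient ones. Slc16a1, which can carry lactate both ways, stood at 10.50, 10.47 and 10.55 and then at 10.35, 10.36 and 10.37. Its 3 hypoxia arrays lay below the ambient ones, by -0.15 (interval -0.28 to -0.03, adjusted p = 0.138). The call of Slc16a3 was lost without ambient replicate 2 (adjusted p = 0.0763), without ambient replicate 3 (0.093) or without hypoxia replicate 1 (0.0762), where its difference was 0.49, 0.44 and 0.43.

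For 7 enzymes of the pathway's trunk, Gpi, Aldoa, Tpi1, Pgk1, Pgam1, Eno1 and Ldha, all 7 intervals lay within 1.5-fold either way. The highest upper limit was 1.18-fold (Aldoa) and the lowest lower limit 0.819-fold (Ldha). These 7 were grouped after their values were seen, as a description.

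**Figure D2:**
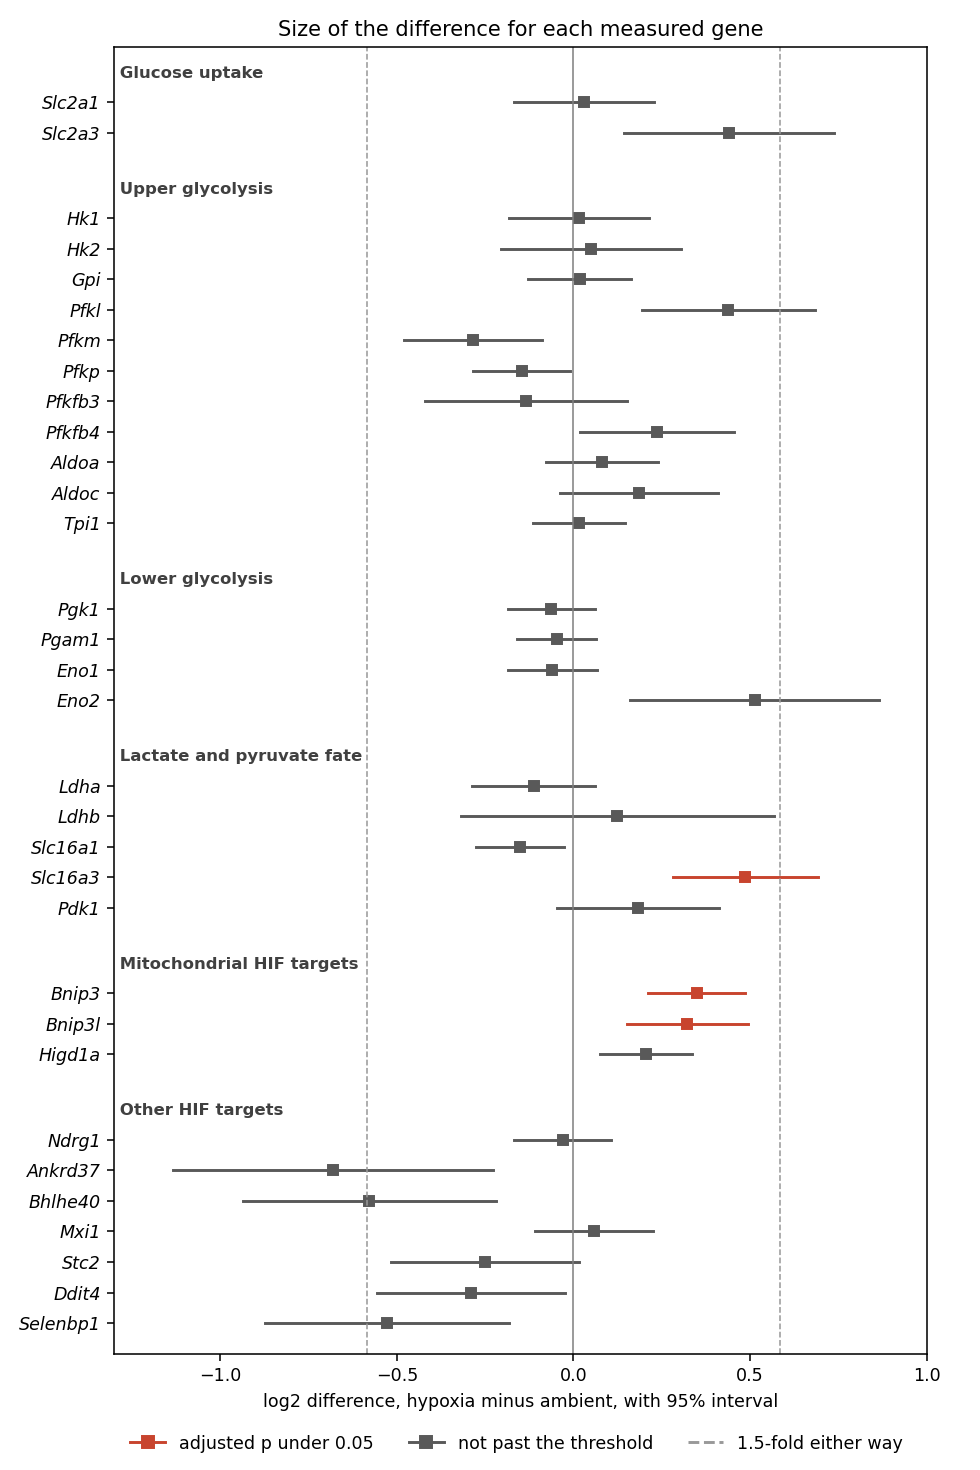
Squares mark the log2 difference, hypoxia minus ambient, of each of the 32 measured genes, and bars its 95% interval from the limma fit. The dashed lines stand at 1.5-fold either way. The 3 genes in red passed an adjusted p of 0.05, and the intervals of Pgk1, Pgam1 and Eno1 are among the narrowest and include 0.

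HIF targets that act on mitochondria held the other 2 calls, among 3 measured genes. Over all probe sets 4.02% were called higher, and 3 genes are too few to compare with that share. Bnip3, an outer membrane protein that marks mitochondria for removal, stood at 11.56, 11.44 and 11.40 in ambient and at 11.76, 11.86 and 11.83 in hypoxia. It rose by 0.35 (SE 0.06, interval 0.21 to 0.49, adjusted p = 0.0196), or 1.27-fold. Its relative Bnip3l, which clears mitochondria from maturing red cells and is also a HIF target, stood at 10.52, 10.60 and 10.53 and then at 10.91, 10.97 and 10.72. Bnip3l rose by 0.32 (SE 0.07, interval 0.15 to 0.50, adjusted p = 0.0469), or 1.25-fold. A second probe set of Bnip3l was higher by 0.13 and did not pass (adjusted p = 0.281), although its groups did not overlap.

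Higd1a, which binds the respiratory chain and is induced by low oxygen, stood at 11.67, 11.63 and 11.59 and then at 11.78, 11.80 and 11.92. Its difference of 0.20 (interval 0.07 to 0.34, adjusted p = 0.0753) did not pass, but its groups did not overlap and a second probe set gave 0.21. All 3 measured members of this group lay higher on every hypoxia array than on any ambient array, as did 15.8% of all probe sets. The fourth, Fam162a, lay below the filter and at or under the bacterial control probe sets on all arrays, so it has no usable level.

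The calls of Bnip3 and Bnip3l did not hold under every setting. That of Bnip3 was lost without ambient replicate 2 (adjusted p = 0.0696), without ambient replicate 3 (0.0767) or without hypoxia replicate 2 (0.055), with differences between 0.32 and 0.34. That of Bnip3l was lost when any array other than hypoxia replicate 3 was left out (highest adjusted p 0.146), with quantile normalization (0.0522), with no filter (0.0541), with no variance trend (0.0718) and with the mean of its probe sets (0.0617).

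Of the remaining HIF targets 0 of 7 passed, with 6 below 0 and 1 above. Over all probe sets 5.99% were called and 50.8% lay above 0. A group this small cannot show a lack of calls against that share. Ankrd37, an ankyrin repeat protein that is a sensitive HIF reporter in many cells, stood at 7.06, 7.21 and 6.92 in ambient and at 6.63, 5.90 and 6.62 in hypoxia. Its difference was -0.68 (SE 0.20, interval -1.13 to -0.23, adjusted p = 0.0835), or 1.60-fold lower, and hypoxia replicate 2 lay farthest from the rest. Without that array the difference was -0.44 (adjusted p = 0.0904), and with an offset of 64 it was -0.41. Bhlhe40, a repressor of the clock and of differentiation genes, stood at 10.90, 10.37 and 10.82 and then at 10.31, 9.88 and 10.18. The difference of -0.58 (interval -0.94 to -0.22, adjusted p = 0.07) passed without ambient replicate 2 (adjusted p = 0.0454), where it was -0.74.

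Selenbp1, an oxidase of the sulfur compound methanethiol, stood at 7.33, 7.64 and 7.38 and then at 7.16, 6.99 and 6.62, without overlap. Its difference was -0.53 (interval -0.87 to -0.18, adjusted p = 0.0799). Ddit4, an inhibitor of mTOR signalling, stood at 9.62, 9.53 and 9.82 in ambient and at 9.39, 9.16 and 9.55 in hypoxia, so 1 hypoxia array reached into the ambient range. It differed by -0.29 (interval -0.56 to -0.02, adjusted p = 0.176), and Stc2, a secreted glycoprotein, by -0.25 (interval -0.52 to 0.02). Without hypoxia replicate 2 Ddit4 differed by -0.19 and Stc2 by -0.14, and with an offset of 64 Stc2 differed by -0.13.

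Ndrg1, a growth-related gene used as a marker of chronic hypoxia in placenta, stood at 13.04, 12.94 and 13.01 in ambient and at 12.86, 12.99 and 13.05 in hypoxia, and overlapped. Its difference was -0.03 (interval -0.17 to 0.11), with -0.21 at a second probe set whose groups overlapped. Mxi1, an antagonist of Myc, differed by 0.06 (interval -0.11 to 0.23) and by -0.06 at its second probe set. Car9, the tumour marker that keeps pH in hypoxic cells, lay below the filter at 5.17 ± 0.06 and 5.17 ± 0.07 (SD, n = 3 each), just above the bacterial controls, with a difference of -0.002 (interval -0.19 to 0.19 in the fit with no filter). Epo, the hormone of red cell production, lay at or under the bacterial controls on all 6 arrays and has no usable level.

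Where a member had a second kept probe set, it had the same sign as the first in 7 of 9 cases, and 0 of the 9 passed. The cases with opposite signs were Slc2a3 and Mxi1. The second probe set of Pgk1 differed by -0.13 (interval -0.32 to 0.05) and that of Pfkfb3 by -0.06.

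The HIF-binding letters were looked up in the promoters, since HIF often binds them near the start sites of its targets. The window was the 250 bases before the start site, from RefSeq on build GRCr8, and the letters were ACGTG and GCGTG on either strand. A CACGTG holds ACGTG on each strand, so it gives 2 matches. Of 36 start sites for 32 members in the table, 25 held a match, or 69.4%, against 36.7% of all 33469 start sites and 40.8% of those of protein-coding genes. Aldoa, Eno1 and Hk1 have several start sites, and Slc2a3, Pgk1, Bnip3l, Ndrg1 and Selenbp1 have no entry. The counts by direction used 1 start site per gene, the one with the lowest coordinate on its chromosome. Among measured members with an entry, 4 of 6 that stood higher at an unadjusted p under 0.05 held a match. So did 6 of 6 that stood lower and 11 of 15 others. A match is a description of these letters and says nothing of binding.

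The promoters below are those of 2 genes that rose, 2 that stood lower and 1 standard HIF target whose difference was near 0. Bnip3 and Slc16a3 rose, Ankrd37 and Bhlhe40 stood lower without passing, and Ldha was near 0. Capitals mark each ACGTG or GCGTG on either strand. The windows are chr1:203154963-203155212 (minus strand) for Bnip3, chr10:106712078-106712327 (plus) for Slc16a3, chr16:53001257-53001506 (plus) for Ankrd37, chr4:143174200-143174449 (plus) for Bhlhe40 and chr1:106507842-106508091 (plus) for Ldha.
Bnip3: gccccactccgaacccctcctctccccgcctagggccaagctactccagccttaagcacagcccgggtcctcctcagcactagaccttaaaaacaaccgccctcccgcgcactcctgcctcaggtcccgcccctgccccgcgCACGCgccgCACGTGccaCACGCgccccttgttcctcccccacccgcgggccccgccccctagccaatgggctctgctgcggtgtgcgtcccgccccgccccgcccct
Slc16a3: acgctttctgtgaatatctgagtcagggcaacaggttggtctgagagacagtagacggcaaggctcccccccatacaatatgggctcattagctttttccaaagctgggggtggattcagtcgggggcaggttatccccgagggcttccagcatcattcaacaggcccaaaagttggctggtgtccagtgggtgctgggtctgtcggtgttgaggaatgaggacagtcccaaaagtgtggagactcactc
Ankrd37: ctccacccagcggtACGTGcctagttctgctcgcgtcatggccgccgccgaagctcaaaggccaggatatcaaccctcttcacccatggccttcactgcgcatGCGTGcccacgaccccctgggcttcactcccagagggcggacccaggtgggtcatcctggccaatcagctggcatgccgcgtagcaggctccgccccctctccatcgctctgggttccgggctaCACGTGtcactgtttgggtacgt
Bhlhe40: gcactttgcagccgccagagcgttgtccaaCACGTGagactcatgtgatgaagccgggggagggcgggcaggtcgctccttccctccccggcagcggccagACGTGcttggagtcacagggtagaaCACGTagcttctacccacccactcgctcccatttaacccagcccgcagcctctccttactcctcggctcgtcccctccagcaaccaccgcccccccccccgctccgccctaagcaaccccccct
Ldha: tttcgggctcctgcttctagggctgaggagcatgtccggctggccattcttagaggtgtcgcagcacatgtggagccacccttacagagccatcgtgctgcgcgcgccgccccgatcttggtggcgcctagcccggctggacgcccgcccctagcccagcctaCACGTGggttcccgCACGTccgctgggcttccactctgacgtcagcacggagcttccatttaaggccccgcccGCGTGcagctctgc
The windows of Bnip3, Ankrd37, Bhlhe40 and Ldha each hold 4 matches, counted on either strand, and that of Slc16a3 holds 0. Each of these 4 windows also holds a CACGTG, so they are not typical of the members. Of the 32 members with an entry, at 1 start site each, 6 hold one, or 18.8%, against 5.59% of all start sites.

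Ratios of 2 isoforms on the same array do not depend on a scaling factor shared by a whole array. They can still depend on a normalization that acts differently on bright and dim probe sets. They were compared for 10 pairs of related members. With 3 arrays against 3 an exact permutation test cannot go below p = 0.1, and 6 of the 10 pairs reached it, with p = 0.167 after Benjamini-Hochberg adjustment over the 10, so no pair can pass. The log2 ratio of Pfkl to Pfkm was 0.44, 0.46 and 0.76 in ambient and 1.47, 1.34 and 1.01 in hypoxia, a shift of 0.72 or 1.65-fold. That of Pfkl to Pfkp moved from -3.35 ± 0.11 to -2.76 ± 0.11 (SD, n = 3 each), a shift of 0.59. In both the groups did not overlap, and Pfkl was the member that stood higher.

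The ratio of Slc16a1 to Slc16a3 was 3.04, 3.10 and 3.28 in ambient and 2.37, 2.57 and 2.57 in hypoxia, a shift of -0.64 or 1.56-fold toward the exporter. Eno1 to Eno2 shifted by -0.57, Slc2a1 to Slc2a3 by -0.41 and Pfkfb3 to Pfkfb4 by -0.37, each without overlap. Pfkfb4 passed the filter only through its hypoxia arrays. Hk1 to Hk2 (-0.03), Aldoa to Aldoc (-0.10), Ldha to Ldhb (-0.24) and Bnip3 to Bnip3l (0.03) had groups that overlapped (exact p from 0.3 to 0.8).

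**Figure D3:**
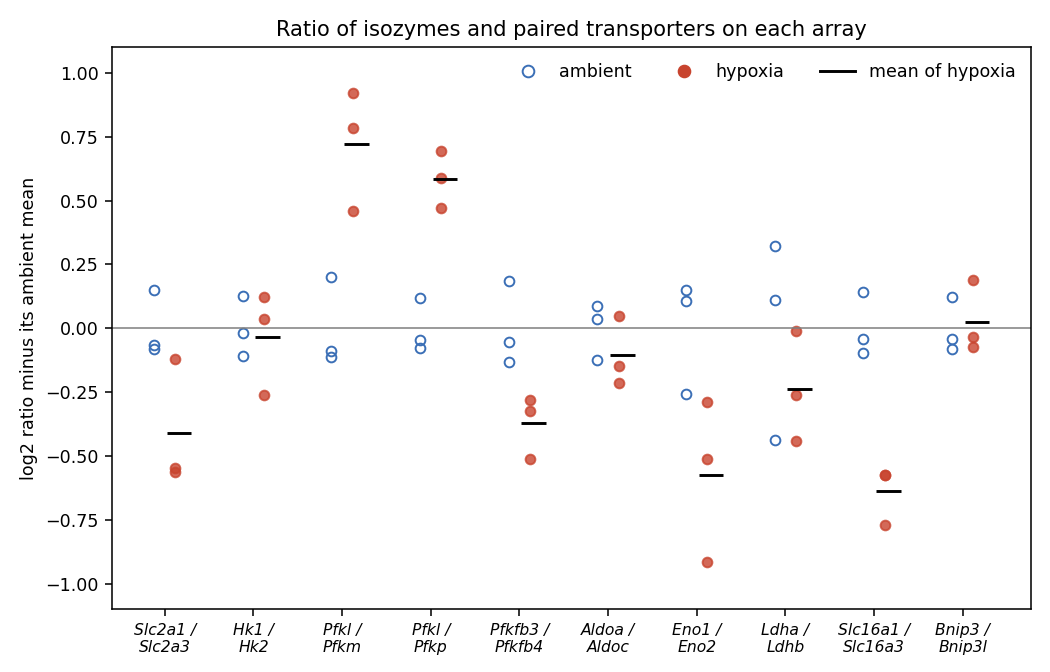
The vertical axis is the log2 ratio of the first named gene to the second on an array, minus its ambient mean. Open circles are ambient arrays, filled circles hypoxia arrays, and short lines the hypoxia mean. The pairs of Pfkl with Pfkm and Pfkp lie apart upward and the pair of Slc16a1 with Slc16a3 apart downward.

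Neighbouring pathways were read in the same way. Over 6 lists of other glycolytic, pyruvate, pentose phosphate, glycogen and HIF genes, 99 distinct genes were measured, of which 8 rose, 1 fell and 90 did not pass, with a median difference of 0.01. The called share was 9.09%, against 5.99% of all probe sets. At an unadjusted p under 0.05 there were 29 of the 99, or 29.3%, against 23.7%. The groups did not overlap for 38, or 38.4%, against 29.9%. Of 14 other glycolytic, gluconeogenic and transport genes, 2 rose, and 3 had an unadjusted p under 0.05. Bpgm, which makes the regulator of haemoglobin's oxygen affinity in red cells, rose from 8.92, 8.86 and 8.80 to 9.75, 10.06 and 9.53, by 0.92 (SE 0.12, adjusted p = 0.010) or 1.90-fold. It was larger than the difference of any measured member and passed under all 16 alternatives. Minpp1, a phosphatase that can also act on that regulator, rose by 0.28 (adjusted p = 0.031), a call lost when any array was left out and with no variance trend (highest adjusted p 0.0924).

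Genes that bring pyruvate into the mitochondrion had 0 calls by limma among 14 measured, with a median of 0.01. The smallest p there was that of pyruvate carboxylase (Pc), at 0.20 (adjusted p = 0.227). The 7 measured genes of the pentose phosphate pathway also had 0 calls (median -0.05), led by the transketolase Tkt at -0.08 (adjusted p = 0.414). At an unadjusted p under 0.05 these lists held 0 and 0 genes. Of 12 glycogen genes 5 had an unadjusted p under 0.05, or 41.7% against 23.7% of all probe sets. By limma 1 was called, or 8.33% against 5.99%. This was Ugp2, which makes the glucose donor for glycogen and rose by 0.29 (adjusted p = 0.0468). Its call was lost in 11 of 16 alternatives.

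Of 44 other HIF targets, 4 rose and 1 fell, which is 11.4% against 5.99% of all probe sets, with a median of 0.01. At an unadjusted p under 0.05 there were 19, or 43.2%, against 23.7%. The groups did not overlap for 22 of the 44, 14 higher and 8 lower, against 29.9% of all probe sets. The collagen hydroxylases P4ha1 and P4ha2 rose. P4ha1 rose by 0.45 (SE 0.06, adjusted p = 0.0117), and P4ha2 by 0.42 (SE 0.08, adjusted p = 0.024). P4ha1 stood at 10.13, 10.30 and 10.15 in ambient and at 10.67, 10.62 and 10.63 in hypoxia. Stc1, a secreted glycoprotein, rose by 0.54 and the endothelial nitric oxide synthase Nos3 by 0.66, while Rbpj, the DNA-binding partner of Notch, fell by 0.39. The ambient mean of Nos3, 5.63, lay below the filter cut of 5.74, so Nos3 was tested only through its hypoxia arrays (mean 6.29). The call of P4ha1 was lost without ambient replicate 3 (adjusted p = 0.0505). Those of P4ha2, Stc1, Rbpj and Nos3 were each lost in 5 alternatives, nearly all of them with 1 array left out, and P4ha2 was at 0.24 with the mean of its probe sets. Adm and Egln3, sensitive HIF targets, differed by 0.11 (interval -0.03 to 0.25) and -0.18 (interval -0.53 to 0.16), and Vegfa by -0.02.

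Among 14 HIF subunits and regulators 4 had an unadjusted p under 0.05, or 28.6% against 23.7% of all probe sets. The groups of 7 did not overlap, or 50% against 29.9%. By limma 1 was called, or 7.14% against 5.99%. This was the HIF partner Arnt2, which rose by 0.67 (SE 0.12, adjusted p = 0.025). Its call was lost when any array other than hypoxia replicate 1 was left out and with the mean of its probe sets, where it was at 0.27. Hif1a differed by 0.06 (interval -0.07 to 0.19) and Epas1, which encodes the second oxygen-sensitive subunit, by 0.05 (interval -0.05 to 0.14). These subunits are controlled mainly through protein stability, which arrays do not see.

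**Figure D4:**
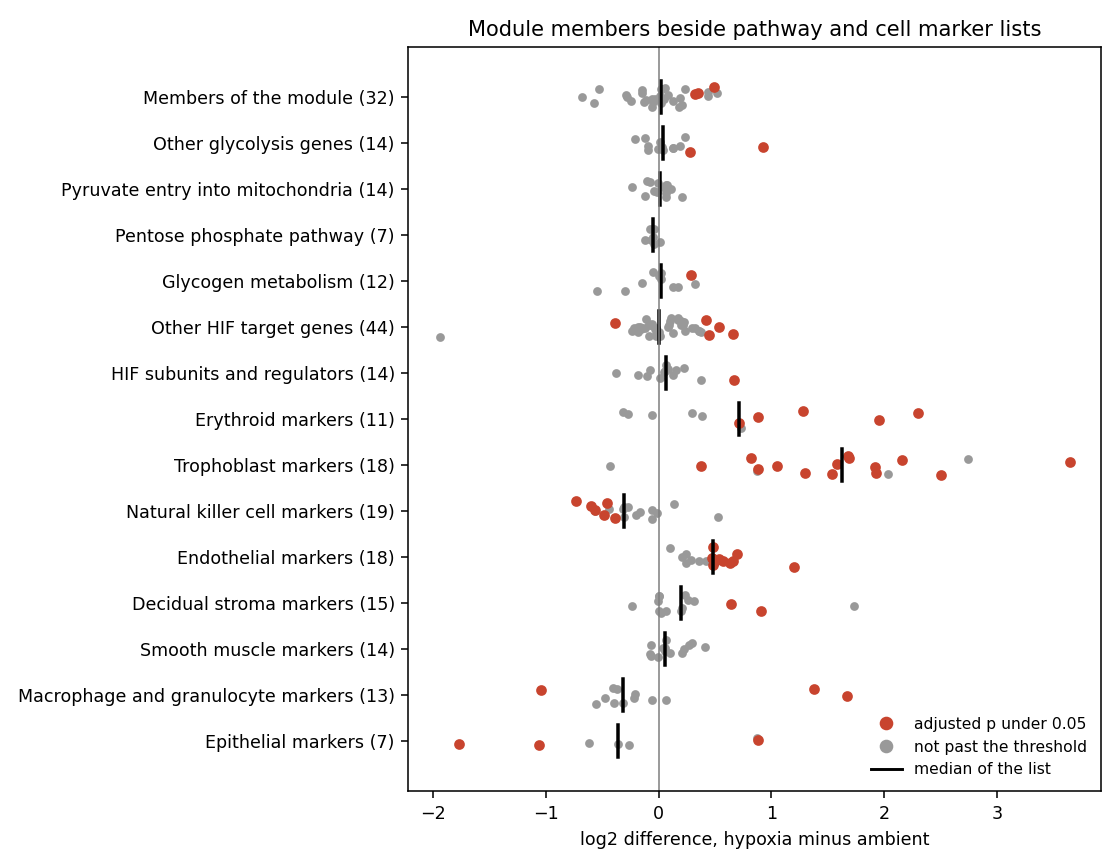
Each dot is a measured gene placed by its log2 difference, hypoxia minus ambient, with 1 row per list and the number of genes in brackets. Red dots passed an adjusted p of 0.05 and black bars are list medians. The members' median of 0.02 sits at 0 like those of the neighbouring pathways, while the median of the trophoblast markers is 1.63 and that of the natural killer cell markers -0.31.

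Markers of several cell types moved with the groups, and their values stand here beside those above. Over all probe sets 4.02% were called higher and 1.97% lower. Of 18 measured trophoblast markers 14 rose, led by Prl7a3 (3.64), Plac1 (2.16) and Krt7 (1.05), with Gcm1 and Tpbpa below the filter. Krt19 differed by -0.43, with groups that overlapped (adjusted p = 0.259). The summed linear level of the 18 was 5113 to 11470.2 on the ambient arrays and 23112 to 30468 on the hypoxia arrays. Of 11 erythroid markers 5 rose, led by Hbb (1.28), Alas2 (2.30) and Ahsp (1.95), while Klf1, Gata1 and 5 others lay below the filter. The ambient mean of Ahsp, 5.61, lay below the filter cut, so Ahsp was tested only through its hypoxia arrays. Epor (-0.27, without overlap), Car2 (-0.32) and Ank1 (-0.06) stood lower without passing. The erythroid sum was 10922 to 13459.6 against 21606 to 25573.5, and Hbb, at log2 means of 12.93 and 14.21, weighed most in it. Of 18 endothelial markers 11 rose, led by Vwf (1.20), Ramp2 (0.48) and Tie1 (0.69), with a sum of 9895 to 10624 against 12289 to 13280.1. Nos3 is among the 11 and is also counted among the HIF targets above. Both lists also hold Flt1, which did not pass. Of 19 natural killer cell markers 6 fell, led by Cst7 (-0.73), Nkg7 (-0.46) and Fcer1g (-0.57), with a sum of 63143 to 71837 against 52488 to 55387. Klrd1 (0.52, adjusted p = 0.192) and Gzmm (0.13) went the other way, with groups that overlapped.

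Other marker lists moved less evenly. Of 15 decidual stroma markers 2 rose (Hand2 by 0.64 and Bmp2 by 0.91), and of 14 smooth muscle markers 0 were called by limma, with Cald1 at 0.27 (adjusted p = 0.0506). At an unadjusted p under 0.05 there were 3 smooth muscle markers, or 21.4% against 23.7% of all probe sets. Of 13 macrophage and granulocyte markers 2 rose (S100a9 by 1.67 and S100a8 by 1.38) and Cd163 fell by 1.05. Of 7 epithelial markers Krt8 rose by 0.88, and Epcam and Cdh1 fell by 1.77 and 1.07. The trophoblast list also holds Krt8 and Krt18, and Krt18 differed by 0.87 (adjusted p = 0.0566). The summed level was 98849 to 102998 in ambient and 106594 to 119231 in hypoxia for decidual stroma, and 51922 to 67492 and 51027 to 68037 for smooth muscle. It was 5572 to 6540 and 5114 to 6075 for macrophages and granulocytes (Itgam below the filter), and 1689 to 2059 and 2101 to 2306 for epithelium (5 of 12 below it). The epithelial sum includes Krt8 and Krt18, and the median difference of that list was -0.36. The part of these markers in the differences of Bnip3, Bnip3l, Slc16a3, Bpgm and the other genes was not tested. As a sign of RNA quality, the 3' minus 5' signal of the array's beta-actin controls was 0.50 ± 0.07 in ambient and 0.67 ± 0.10 in hypoxia (SD, n = 3 each, exact permutation p = 0.1). These groups did not overlap, and 0.1 is the smallest p possible with 3 arrays against 3. For GAPDH the signal was -0.03 ± 0.02 and 0.004 ± 0.05 (exact permutation p = 0.2). For hexokinase it was 1.36 ± 0.13 and 1.42 ± 0.02 (exact permutation p = 0.5), and the part of RNA quality was not tested either.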

How the data were processed

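The deposited table holds 1 log2 value per probe set for each of 6 arrays, 3 per group. Values between 2.98 and 14.9 fit a log2 scale, which no source states. MAS5 and Affymetrix Expression Console appear in the submitters' processing notes, without version or role, and how the authors corrected background and scaled arrays is not given in the sources used here. Array medians (6.44 to 6.47) were already alike, so a shift shared by most genes would not be seen. The number of arrays limits the precision.

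The 57 control probe sets and the 40% of the other 31042 with the lowest means (below 5.74) were left out, which kept 18625. Of the 31042, 20826 carried 1 gene symbol, 436 several and 9780 none, from the platform annotation, updated through gene identifiers to RefSeq GRCr8 (20758 found). Hypoxia was compared with ambient by limma 3.58.1 in R 4.3.3 (lmFit, eBayes with trend, group only, two-sided, Benjamini-Hochberg, threshold 0.05). The fit was also tested on simulated data with the spread of these arrays. There 54.55% of changes of 0.5 on the log2 scale were called with the right sign, and 85.07% of changes of 1. Many true changes of the size seen here would therefore not pass. Differences are hypoxia minus ambient on the log2 scale, with SE or 95% interval, and n = 3 arrays per group. The planned test allowed for linear signal, and the values were used as they are on the log2 scale. The background guide was 27 bacterial probe sets, whose highest value was 5.00. Isoform ratios were compared by an exact two-sided permutation test. Alternatives were quantile normalization, median centring, other filters, variance models, array weights, an offset of 64, gene means of probe sets, a replicate block and each array left out.

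Every member is named, with its value where it has a usable one, and from each other list up to 3 called genes by smallest p, or the smallest p where none was called, plus Vegfa, Adm, Egln3, Hif1a and Epas1. Further genes were named after their values were seen. The members, lists and tests were chosen with earlier results of these data known.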

Additional observations from a re-analysis of the deposited data

How the results depend on the processing

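With 1 array left out the members called ranged from 0 to 4, higher from 0 to 4 and lower from 0 to 1, against 3, 3 and 0 with all arrays. The count was 0 by limma without ambient replicate 3, 1 without ambient replicate 2 or hypoxia replicate 2, and 2 without ambient replicate 1 or hypoxia replicate 1. Over all probe sets the calls ranged from 267 to 1029, higher from 223 to 683 and lower from 44 to 346, against 1116, 749 and 367. With no variance trend 241 probe sets were lower. With quantile normalization 55.4% of called probe sets were higher, against 67.1%. Isoform pairs without overlap numbered 6, each holding a gene without overlap on its own, with 6 under quantile normalization and 5 with an offset of 64. With 1 array left out they numbered 6 to 7, but leaving out an array cannot create overlap, so that range does not test stability.

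Arrays of the same number in both groups deviated together only weakly (correlations 0.0124, 0.0706 and 0.0705), and not every array correlated best with its own number, so the numbers were not taken as pairs. The replicate block gave 6 members called, 5 higher and 1 lower, with Slc2a3 (adjusted p = 0.0365), Eno2 (0.0234) and Bhlhe40 (0.0071) past the threshold, and 1317 probe sets.

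Signs turned for 8 members with differences near 0, and the cause was not tested. With quantile normalization Hk1 was at -0.013, and with the mean of a gene's probe sets Mxi1 was at -0.00036. With 1 array left out Slc2a1 ranged from -0.060 to 0.102, Hk1 from -0.053 to 0.067, Hk2 from -0.056 to 0.134, Gpi from -0.023 to 0.063, Tpi1 from -0.015 to 0.061, Ldhb from -0.043 to 0.319 and Ndrg1 from -0.072 to 0.021. Of 508 member values under the alternatives, 468 kept direction and side of the threshold.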

Other observations

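Igfbp1, a HIF target that binds insulin-like growth factors and is made by decidual cells, had the lowest difference of the 44 other HIF targets and was singled out after its values were seen. It stood at 8.70, 7.66 and 7.88 on the ambient arrays and at 7.23, 5.90 and 5.28 on the hypoxia arrays, without overlap. The difference was -1.94 (SE 0.47, 95% interval -3.03 to -0.85), or 3.84-fold lower, and it did not pass the threshold (limma adjusted p = 0.0525). Hypoxia replicate 1 lay nearest to the ambient arrays.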
